A study of Lepidobatrachus laevis with 14 samples.

Results

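The genes described here are 10 genes of macrophages and other leukocytes, measured in the left and right stomach of embryos of Lepidobatrachus laevis, Budgett's frog. The genes were chosen by name, as entries of the human protein database UniProt, and were CSF1R, CSF3R, SPI1, PTPRC, LCP2, VAV1 (entry VAV), RAC2, CORO1A (entry COR1A), LCP1 (entry PLSL) and MPEG1. Of the 10 names 8 had a row in the table of read counts, among 13574 reviewed entry names in all. LCP2, an adaptor protein of leukocyte receptor signalling, and MPEG1, a pore-forming protein of phagocytes, had no row under their entry names and were not analysed here. The 8 genes had 12 rows, because SPI1 and PTPRC had 2 isoform rows each and CSF3R had 3. The reviewed row with the highest mean count stood for each gene.

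The animals were labelled wild-caught and wild-type, at Gosner stage 19, and stomachs had been dissected into their left and right parts. The left group held 7 libraries and the right group 7. On each side 2 libraries, replicates 7 and 8, pooled parts of 5 stomachs, and the other 5 libraries each came from 1 stomach. The libraries of the pools were also made at another facility than the single-stomach libraries, and these 2 differences cannot be told apart. Single-stomach libraries were matched across sides by their titles into 5 title pairs, which the labels do not state to be the parts of 1 stomach. Nothing limits the cell types in a part, so each library is a mixture of all tissues of the cut stomach.

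Macrophages are phagocytes that appear early in vertebrate embryos and spread through developing tissues, where they clear dying cells. In mammals and fish their formation depends on the transcription factor SPI1, also called PU.1. Many of them also depend on the receptor CSF1R. The remaining genes encode proteins shared by many blood cells, among them the phosphatase PTPRC, also called CD45, and the signalling and actin-binding proteins by which leukocytes move and engulf. The study asked which transcripts differ between the left and right stomach.

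Total counts ranged from 12174670 to 57498697 in left and from 14836223 to 62707669 in right libraries. Earlier work on these data separated the single-stomach libraries into replicates 5 and 6 (47441280 to 62707669 counts) and replicates 1 to 3 (21525694 to 34229305 counts), a division that the labels do not give. The pool left 8 stood apart, with 21.0% of 26940 rows at 0 counts, against 9.68% to 13% in the other 3 pools and 3.07% to 4.91% in single-stomach libraries. Its genes of red blood cells, the erythroid list below, summed to 74055 CPM. The next highest library, right 8, held 29443 CPM of them. Levels below are CPM, the usual unit of counts scaled to a common library total, and were not divided by gene length, so levels of different genes were not ranked against each other. The genes were sparsely covered, from 0 reads for SPI1, PTPRC and CSF3R in some pools to 321 reads for LCP1 in right 2.

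The 8 genes tended to lie lower in the left stomach, but none passed an adjusted p of 0.05 in the test across all 14 libraries. All 8 had a negative log2 fold, left over right, with a median of -0.71, where the median over all 23271 tested rows was 0.01 and 47.1% of rows were negative. The 8 genes varied together between libraries, as described below, so their 8 negative folds are not 8 separate observations. All 8 passed the filter on low counts. A quasi-likelihood test in edgeR that included the source of the library (pool or single stomach) called 0 of the 8 at an adjusted p of 0.05, and 0% of all rows. At an unadjusted p under 0.05 it gave 1 of the 8, CSF1R, which was lower on the left, as were 0.713% of all rows at that p (247 rows in either direction). That test had no term for title pairs or for the sets within the single-stomach libraries, so its spread includes their differences. With the 3 library sets as a term, edgeR gave unadjusted p of 0.00843 for CSF1R, 0.0169 for SPI1 and 0.0191 for CORO1A. The others were above 0.05, 487 of all rows were under it, and 0 rows were called. In bulk tissue, fewer leukocytes and less of each transcript per leukocyte cannot be told apart.

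**Figure D1:**
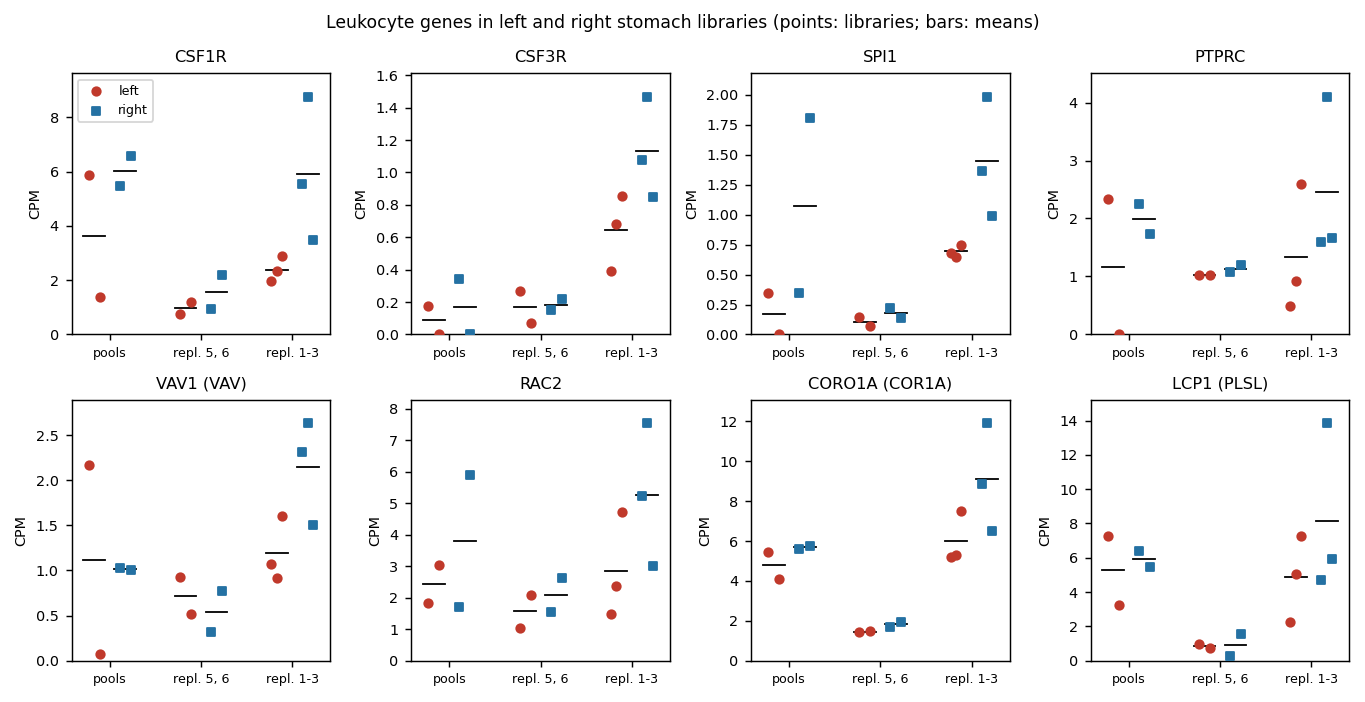
Level of each gene in CPM (y axis, linear, from 0) in every library, with left libraries as red circles and right libraries as blue squares, grouped into pools, replicates 5 and 6, and replicates 1 to 3; black bars are means. Right replicate 2 is the highest library for all 8 genes, and the libraries of replicates 5 and 6 lie low.

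CSF1R, the receptor for the macrophage growth factors CSF1 and IL-34, was 1 of 2 genes, with SPI1, that were lower on the left in every title pair. In the left libraries of replicates 1, 2 and 3 CSF1R stood at 1.95, 2.34 and 2.87 CPM, against 5.54, 8.75 and 3.48 CPM in the right libraries of the same numbers. Replicates 5 and 6 held 0.760 and 1.21 CPM of it on the left, against 0.935 and 2.19 CPM on the right. In the pools, replicates 7 and 8, CSF1R was at 5.89 and 1.36 CPM on the left, against 5.49 and 6.57 CPM on the right.

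These 5 of 5 pairs were a pattern that 3.78% of all tested rows shared, and the sides overlapped across libraries. Its mean was 2.34 ± 1.72 CPM in left and 4.71 ± 2.68 CPM in right libraries (SD, n = 7 each), from 18 to 203 reads per library. The log2 fold, left over right, was -1.06 ± 0.46 (SE; edgeR unadjusted p = 0.0374, adjusted p = 1). Means were lower on the left in replicates 1 to 3 (2.39 ± 0.462 against 5.92 ± 2.66 CPM; SD, n = 3 each). They were also lower in replicates 5 and 6 (0.986 ± 0.320 against 1.56 ± 0.886 CPM) and in the pools (3.63 ± 3.20 against 6.03 ± 0.763 CPM; SD, n = 2 each). Without right replicate 2 the fold was -0.74 ± 0.43 (unadjusted p = 0.104).

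CSF1R fell on the left in the 5 title pairs when these were compared by DESeq2 with the pair as a block. There it averaged 1.83 ± 0.850 CPM in left and 4.18 ± 3.07 CPM in right libraries (SD, n = 5 each), with a log2 fold of -0.99 ± 0.27 (SE, DESeq2 adjusted p = 0.0471). Of the 8 genes 1 was called lower in that fit, against 0.301% of all rows with an adjusted p. The edgeR test of the same pairs gave the same fold, -0.99 ± 0.26, but did not call it (adjusted p = 0.641). The DESeq2 call was also lost when pair 1, 2 or 6 was left out (adjusted p = 0.732, 0.742 and 0.227). It held without pair 3 (0.0327) or pair 5 (0.0465).

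SPI1, the transcription factor that directs cells to the myeloid lineage, was also lower on the left in 5 of 5 title pairs, by its most abundant row. It was at 0.684, 0.651 and 0.746 CPM in left replicates 1 to 3, against 1.37, 1.98 and 0.989 CPM in the right ones. In replicates 5 and 6 the left libraries held 0.144 and 0.0693 CPM, against 0.217 and 0.134 CPM on the right. Within each of these sets every left library lay below the right library of its number.

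In the pools SPI1 was at 0.347 CPM in left 7 and at 0 in left 8, against 0.343 CPM in right 7 and 1.80 CPM in right 8. Those 0 reads allow up to 0.227 CPM (3 reads) in left 8; left 7 and right 7 held nearly the same level. SPI1 averaged 0.377 ± 0.316 CPM in left and 0.977 ± 0.768 CPM in right libraries (SD, n = 7 each), from 0 to 46 reads per library. Its log2 fold, -1.36 ± 0.76 (SE), was the most negative of the 8, with a wide error (edgeR unadjusted p = 0.0925, adjusted p = 1). In the title pairs alone, with the pair as a block, edgeR gave -0.93 ± 0.27 (unadjusted p = 0.00842, adjusted p = 0.697). DESeq2 gave -0.93 ± 0.43 for the same pairs (adjusted p = 0.799), so neither called SPI1. The less abundant SPI1 row, P17947, had a log2 fold of -1.08 ± 0.84 in the test across all libraries. It was not lower on the left in every pair. Its reads were 24 in left 3 against 16 in right 3, and 8 in left 6 against 5 in right 6. In replicates 1, 2 and 5 that row was lower on the left. The most abundant row itself had only 7 against 13 reads in replicate 5 and 4 against 8 in replicate 6. The 2 rows are isoforms of 1 entry and may share reads, so they are no independent measurement.

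**Figure D2:**
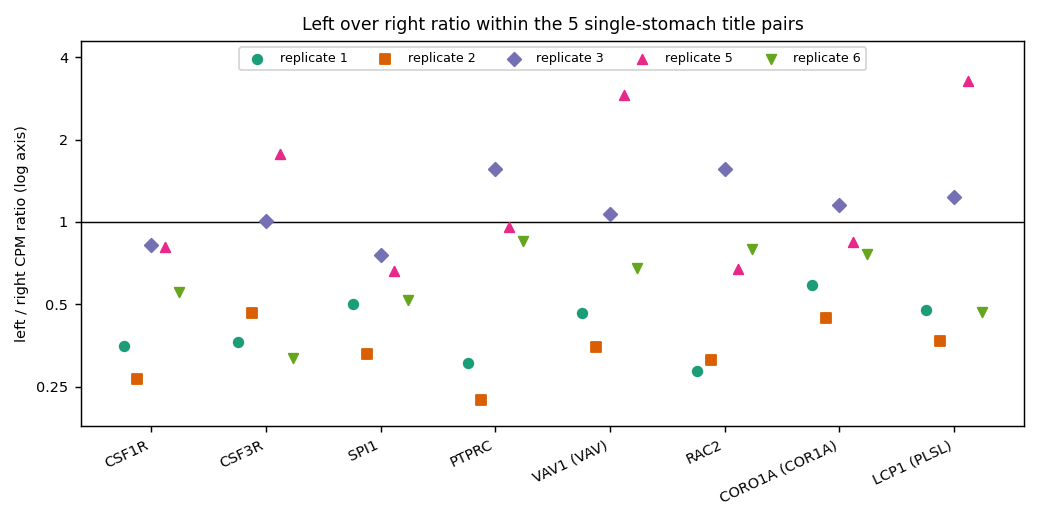
Ratio of left to right CPM (y axis, log scale) for each gene in the 5 pairs of single-stomach libraries matched by title, with the line at equal levels. CSF1R and SPI1 lie below 1 in all 5 pairs, and the low ratios of every gene in replicates 1 and 2 contrast with replicate 3, where 6 of 8 lie above 1.

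CSF3R, the receptor for the neutrophil growth factor CSF3, was near the limit of detection. In replicates 1 to 3 it was at 0.391, 0.680 and 0.857 CPM on the left, against 1.08, 1.47 and 0.848 CPM on the right. In replicates 5 and 6 the left libraries held 0.267 and 0.0693 CPM, against 0.15 and 0.217 CPM on the right. In the pools it had 0.173 CPM in left 7, against 0.343 CPM in right 7, and 0 reads in left 8 and in right 8.

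CSF3R thus overlapped between the sides, and the 0 counts allow up to 0.227 CPM in left 8 and 0.216 CPM in right 8. Its mean was 0.348 ± 0.318 CPM in left and 0.586 ± 0.549 CPM in right libraries (SD, n = 7 each; edgeR log2 fold -0.78 ± 0.71, adjusted p = 1). The second CSF3R row that passed the filter, Q99062-4, had a similar log2 fold of -0.84 ± 0.59.

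PTPRC, the receptor phosphatase found on all nucleated blood cells of mammals, was lower on the left in 4 of 5 title pairs. In replicates 1 to 3 PTPRC was at 0.489, 0.917 and 2.60 CPM on the left, against 1.60, 4.10 and 1.67 CPM on the right. Replicates 5 and 6 were nearly level, with 1.03 and 1.02 CPM on the left, against 1.07 and 1.2 CPM on the right. The pools held 2.34 CPM in left 7 and 0 in left 8, against 2.25 CPM in right 7 and 1.73 CPM in right 8.

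Replicate 3 ran the other way for PTPRC, and the low left values came from replicates 1 and 2 and from left 8. PTPRC averaged 1.2 ± 0.943 CPM in left and 1.95 ± 1.02 CPM in right libraries (SD, n = 7 each; edgeR log2 fold -0.69 ± 0.56, adjusted p = 1). Without right replicate 2 its fold was -0.38 ± 0.57. The other PTPRC row, P08575, did not pass the filter and is not part of these levels. It had 23 reads in left 6, 7 in right 6 and 0 to 8 in the other libraries. Replicate 6 was thus lower on the left only by the more abundant row.

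RAC2, a small GTPase of blood cells that drives actin remodelling and the oxidative burst, was lower on the left in 4 of 5 pairs. Left replicates 1 to 3 held 1.5, 2.37 and 4.73 CPM, against 5.25, 7.54 and 3.02 CPM in the right ones. Left replicates 5 and 6 held 1.05 and 2.1 CPM, against 1.55 and 2.62 CPM on the right. The left pools held 1.82 and 3.03 CPM, against 1.71 and 5.92 CPM in the right pools. RAC2 was thus lower on the left in all single-stomach title pairs but replicate 3, where it was 1.56 times the right level. Among the pools left 7 lay slightly above right 7. RAC2 averaged 2.37 ± 1.22 CPM in left and 3.95 ± 2.30 CPM in right libraries (SD, n = 7 each; edgeR log2 fold -0.73 ± 0.41, unadjusted p = 0.0986, adjusted p = 1).

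VAV1 activates RAC proteins downstream of leukocyte receptors. Its levels ranged from 0.0758 to 2.17 CPM on the left (median 0.924) and from 0.317 to 2.63 CPM on the right (median 1.03). The lowest value was that of left 8, where VAV1 had 1 read. It was lower on the left in 3 of 5 pairs, and in replicate 5 it was 2.91 times higher on the left. The log2 fold of VAV1 was -0.39 ± 0.54 (SE, edgeR adjusted p = 1).

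The genes of actin-binding proteins had the highest total counts of the 8. CORO1A, coronin 1A, which binds the actin network of leukocytes, ranged from 1.44 to 7.49 CPM on the left (median 5.21) and from 1.70 to 11.9 CPM on the right (median 5.77). CORO1A was lower on the left in 4 of 5 pairs, with a log2 fold of -0.47 ± 0.47 (SE, edgeR adjusted p = 1). In the title pairs alone, with the pair as a block, edgeR gave -0.48 ± 0.19 for CORO1A (unadjusted p = 0.0370, adjusted p = 0.844). LCP1, L-plastin, which bundles actin filaments, ranged from 0.727 to 7.28 CPM on the left (median 3.26) and from 0.301 to 13.8 CPM on the right (median 5.48). LCP1 was lower on the left in 3 of 5 pairs, and its log2 fold of -0.54 ± 0.66 shrank to -0.02 ± 0.62 without right replicate 2.

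Title pairs differed in how strongly the genes parted the sides. All 8 were lower on the left in replicates 1, 2 and 6, 5 of 8 in replicate 5 and 2 of 8 in replicate 3. Among all tested rows 55.1%, 48.7%, 49.6%, 50.2% and 46.6% were lower on the left in replicates 1, 2, 6, 5 and 3. In replicate 2 the left level was between 0.224 and 0.464 times the right level, with PTPRC the lowest ratio and CSF3R the highest. In replicate 3 the ratios ran from 0.754 for SPI1 to 1.56 for RAC2 and PTPRC. Across the pairs 5 of 8 genes were lower on the left in at least 4, a pattern that 19.1% of all rows shared.

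Right replicate 2 was the library with the highest level of all 8 genes. There the 8 rows summed to 52.2 CPM, against 18.2 CPM in left replicate 2, and the next library, right 1, held 30.7 CPM. This sum was lower on the left in 3 of 5 title pairs. In replicates 3 and 5 the left sum was 1.18 and 1.06 times the right sum. Without right replicate 2 all 8 log2 folds were still negative, and their median was -0.42. Without left 8 all 8 were negative with a median of -0.56. In the pools the 8 rows summed to 25.5 CPM in left 7 and 11.8 CPM in left 8. The right pools held 23.2 CPM in right 7 and 28.3 CPM in right 8.

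The 8 genes varied together from library to library. Pearson correlations between their log2 levels, with the mean of each library source removed, were positive in 28 of 28 gene pairs over 14 libraries (median 0.75, range 0.43 to 0.93). With the mean of each of the 3 library sets removed the median was 0.68 and all 28 stayed positive. Libraries of a title pair may share a stomach and the points share library depth, so these values are a description. Right 2 was the highest library for all 8 genes, and correlations without it, or of all tested rows, are not given beside them.

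A larger contrast lay between the sets of single-stomach libraries. Replicates 5 and 6 held less of every gene than replicates 1 to 3 on average. The 8 rows summed to 6.25 to 10.6 CPM in the 4 libraries of replicates 5 and 6, against 13.6 to 52.2 CPM in the 6 libraries of replicates 1 to 3. The median log2 ratio, replicates 5 and 6 over replicates 1 to 3, was -1.95 for the 8 genes and -0.01 for all tested rows.

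For 4 of the 8 genes, SPI1, CSF3R, CORO1A and LCP1, all libraries of replicates 5 and 6 lay below all of replicates 1 to 3, as did 18.3% of all tested rows. With the isoform rows of a gene summed this held for 3 of the 8, and for 16.6% of all entries. The separation of CSF3R was that of its most abundant row. Its row Q99062-4 overlapped, with 4 to 42 reads per library in replicates 5 and 6 and 4 to 22 reads in replicates 1 to 3. SPI1 averaged 0.141 ± 0.0606 CPM in replicates 5 and 6 and 1.07 ± 0.521 CPM in replicates 1 to 3 (SD, n = 4 and 6). LCP1 averaged 0.892 ± 0.524 CPM in replicates 5 and 6 and 6.51 ± 3.95 CPM in replicates 1 to 3. For CORO1A the mean was 1.65 ± 0.235 CPM in replicates 5 and 6 and 7.54 ± 2.54 CPM in replicates 1 to 3. CSF3R, the least covered of them, was at 0.176 ± 0.0857 CPM in replicates 5 and 6 and at 0.886 ± 0.364 CPM in replicates 1 to 3.

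The other 4 genes overlapped between these sets. CSF1R was at 1.27 ± 0.637 CPM in replicates 5 and 6 and 4.16 ± 2.58 CPM in replicates 1 to 3, and VAV1 at 0.632 ± 0.268 CPM in replicates 5 and 6 and 1.67 ± 0.677 CPM in replicates 1 to 3. RAC2 was at 1.83 ± 0.680 CPM in replicates 5 and 6 and at 4.07 ± 2.21 CPM in replicates 1 to 3. PTPRC differed least, with 1.08 ± 0.0843 CPM in replicates 5 and 6 and 1.89 ± 1.30 CPM in replicates 1 to 3. The sets were drawn from the data and differ in depth, so no test was made between them.

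Other genes known from leukocytes moved in both directions between the same sets. ITGB2 (entry ITB2), the beta chain of the leukocyte integrins, was at 1.93 ± 1.5 CPM in replicates 5 and 6 and 30.1 ± 5.62 CPM in replicates 1 to 3. The lysosomal protein CD68 was at 0.142 ± 0.0478 CPM in replicates 5 and 6 and 1.35 ± 0.525 CPM in replicates 1 to 3. The protease CTSS (entry CATS) was at 0.124 ± 0.101 CPM in replicates 5 and 6 and 1.39 ± 0.773 CPM in replicates 1 to 3. IRF8, a myeloid transcription factor, was at 0.338 ± 0.176 CPM in replicates 5 and 6 and 1.62 ± 0.998 CPM in replicates 1 to 3. Others ran the opposite way. ITGA4 (entry ITA4), an integrin alpha chain, was at 129 ± 3.23 CPM in replicates 5 and 6 and 75.2 ± 13.4 CPM in replicates 1 to 3. The neutrophil peroxidase MPO (entry PERM) was at 13.6 ± 3.45 CPM in replicates 5 and 6 and 4.37 ± 2.07 CPM in replicates 1 to 3. MARCO, a scavenger receptor, was at 2.55 ± 0.496 CPM in replicates 5 and 6 and 1.37 ± 0.200 CPM in replicates 1 to 3. These 7 genes were picked for this account with their values in view, and which cells made their transcripts was not tested.

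In counts without overlap over whole lists, leukocyte genes did not lie lower in replicates 5 and 6 as 1 group. The median log2 ratio, replicates 5 and 6 over replicates 1 to 3, was nonetheless negative for most lists. It was -1.31 for integrin and adhesion genes, -1.24 for NADPH oxidase subunits and -0.81 for lymphocyte genes. For leukocyte signalling it was -0.61, for macrophages and phagocytes -0.45 and for neutrophils and granulocytes -0.07. Chemokine and cytokine receptors had 0.15, and all tested rows -0.01. Over all tested rows 18.3% were lower and 18.8% higher there without overlap, and several list counts lay near these shares. Of 24 tested genes of leukocyte signalling 7 were lower without overlap and 3 higher, and of 8 integrin and adhesion genes 1 was lower and 1 higher. Of 18 macrophage and phagocyte genes 4 were lower and 5 higher, and the list, over its 22 genes with a row, summed to 472 to 527 CPM in replicates 5 and 6, against 266 to 486 CPM in replicates 1 to 3. Of 8 neutrophil and granulocyte genes 1 was lower and 3 higher, and the 12 genes of that list with a row summed to 227 to 288 CPM in replicates 5 and 6, against 52.3 to 148 CPM in replicates 1 to 3. Of 9 chemokine and cytokine receptors 1 was lower and 3 higher. Of the 5 NADPH oxidase subunits 2 were lower and 0 higher. That list summed to 5.73 to 10.9 CPM in replicates 5 and 6, against 11.1 to 38.2 CPM in replicates 1 to 3.

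**Figure D3:**
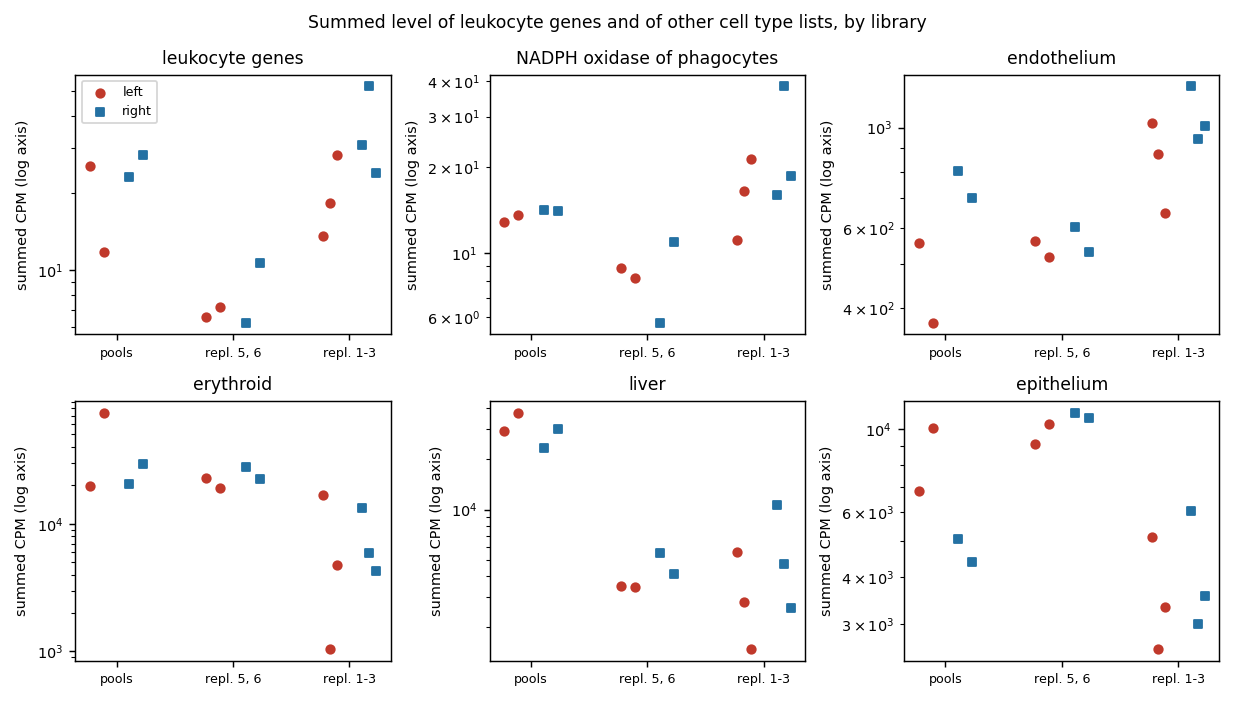
Summed CPM (y axis, log scale) of the leukocyte genes and of 5 other lists in every library, with left libraries as red circles and right libraries as blue squares, by library set. The leukocyte and endothelial sums are lower in replicates 5 and 6 than in replicates 1 to 3, and the erythroid and epithelial sums lie higher there.

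Markers of other tissues were counted against the same shares of all rows, 18.3% lower and 18.8% higher. Of 13 endothelial genes 8 were lower in replicates 5 and 6 without overlap and 0 were higher. Their levels summed to 518 to 602 CPM there, against 647 to 1233 CPM in replicates 1 to 3. Of 5 epithelial genes 4 were higher without overlap, with the list summing to 9101 to 11067 CPM in replicates 5 and 6, against 2571 to 6034 CPM in replicates 1 to 3. Of 11 tested erythroid genes 3 were higher without overlap, near the share of all rows, with the list summing to 19179 to 27676 CPM in replicates 5 and 6, against 1047 to 16674 CPM in replicates 1 to 3. No defining endothelial or epithelial marker was at 0 in any library. Their part in the levels of the leukocyte genes was not tested.

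Between pools and single-stomach libraries edgeR called 0 of the 8 genes, against 30.4% of all rows. Of the 7082 rows called, 2955 were higher and 4127 lower in pools, and without scaling 1881 were higher and 5264 lower. CSF1R averaged 4.83 ± 2.35 CPM in the 4 pools and 3.0 ± 2.46 CPM in the 10 single-stomach libraries (SD; log2 fold, pools over single stomachs, 0.76 ± 0.50, edgeR adjusted p = 0.267). CSF3R was at 0.129 ± 0.164 CPM in pools and 0.602 ± 0.459 CPM in single-stomach libraries (log2 fold -2.11 ± 0.96, adjusted p = 0.109). CSF3R was called by DESeq2 (adjusted p = 0.0480) and by edgeR with its isoform rows summed (0.0261). The other 6 had log2 folds between -0.38 and 0.45. The left-right difference of a gene did not depend detectably on the source, with 0 of 8 called for the interaction and 0% of all rows (edgeR adjusted p of 0.906 to 1 for the 8, and 1785 of all rows under an unadjusted p of 0.05). The SE of these interaction log2 folds was 0.96 for RAC2 to 1.97 for CSF3R, so large differences could go undetected. Leaving out 1 library moved the interaction log2 fold of PTPRC between -8.50 and 0.88.

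Some other genes of phagocytes and granulocytes were called between pools and single stomachs, where 30.4% of all rows were called, so the counts of these lists are not particular to them. The test took left and right libraries as independent, although they may share stomachs, so its p-values may be too small. Of 18 macrophage and phagocyte genes 5 were higher and 3 lower in pools. CEBPA, a transcription factor of myeloid cells and of liver, was at 63.3 ± 7.75 CPM in pools and 11.1 ± 4.29 CPM in single-stomach libraries (log2 fold 2.54 ± 0.24, edgeR adjusted p = 1.1e-05). The scavenger receptor CD163 (entry C163A) was at 5.8 ± 1.34 CPM in pools and 0.542 ± 0.350 CPM in single-stomach libraries (3.49 ± 0.42, adjusted p = 5.39e-05). TLR5, a receptor for bacterial flagellin, was also higher in pools (1.67 ± 0.25). MARCO was lower, at 0.0406 ± 0.0471 CPM in pools and 1.84 ± 0.689 CPM in single-stomach libraries (adjusted p = 4.97e-05).

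Of 8 tested neutrophil and granulocyte genes 2 were higher and 1 lower in pools. The higher ones were lactotransferrin (entry TRFL), which may share reads with close paralogs, and CEBPE, a factor of granulocytes. The lower one was MPO, at 0.481 ± 0.341 CPM in pools and 8.08 ± 5.41 CPM in single-stomach libraries (adjusted p = 0.00146). Of 24 leukocyte signalling genes 2 were higher and 4 lower, below the share of all rows. The lower ones included LAPTM5 (entry LAPM5), a lysosomal protein of blood cells. LAPTM5 had 0 reads in all 4 pools and 2.87 ± 2.06 CPM in single-stomach libraries. Those 0 reads allow up to 0.147 CPM (right 7) to 0.260 CPM (left 7), at 3 reads. All 7 genes of the liver list with a row were higher in pools, with a median log2 fold of 2.60, and their part in these differences was not tested.

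The paralogs of the 8 genes were also mostly negative between the sides, with smaller folds. Of 23 tested paralogs 18 had a negative log2 fold, left over right, where 47.1% of all rows did, with a median of -0.11, and 0 were called, as for the 8 genes. RAC1, the widely expressed relative of RAC2, was at 297 ± 22.1 CPM in left and 303 ± 42.0 CPM in right libraries (log2 fold -0.03 ± 0.10). PLS3 (entry PLST), a relative of LCP1, was at 119 ± 31.0 CPM in left and 130 ± 22.4 CPM in right libraries (-0.15 ± 0.17). CORO1C (entry COR1C) was at 356 ± 60 CPM in left and 337 ± 62.4 CPM in right libraries (0.08 ± 0.14). SPIB, the relative of SPI1, had the smallest p among them, at 6.90 ± 3.94 CPM in left and 11.5 ± 5.41 CPM in right libraries (-0.73 ± 0.24, edgeR unadjusted p = 0.00835, adjusted p = 1). Counts are listed against human proteins, so reads of close relatives such as RAC1 and RAC2 may have been split or shared, and the values of both are uncertain.

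**Figure D4:**
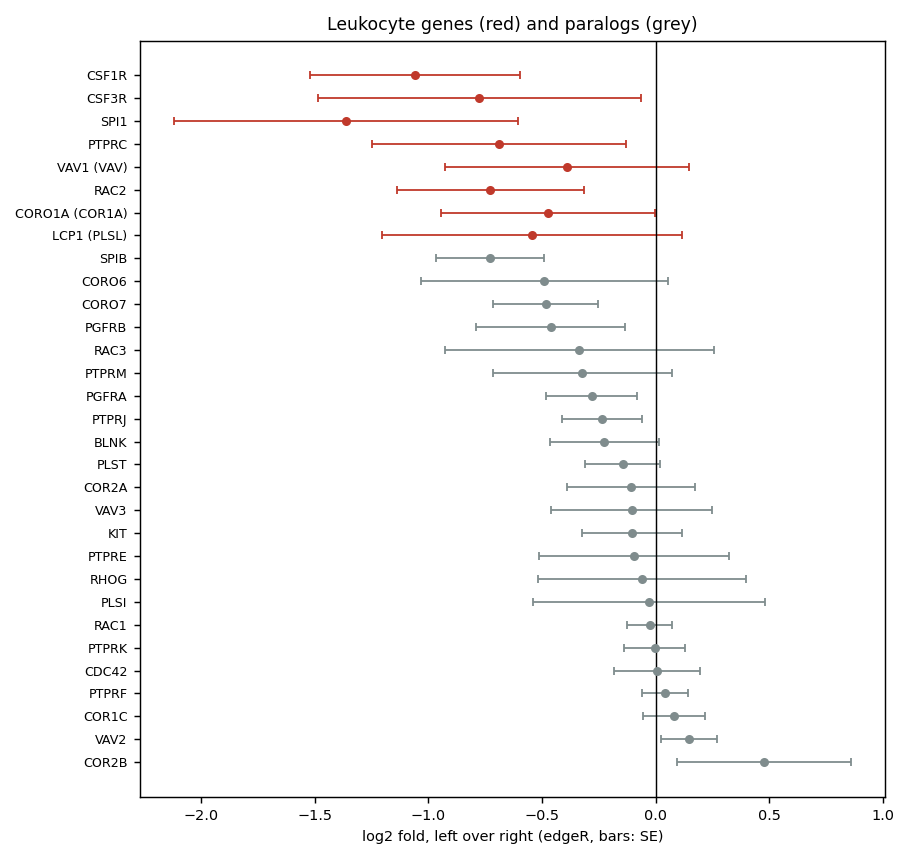
The log2 fold, left over right, of the 8 leukocyte genes (red) and their 23 tested paralogs (grey), with standard errors from edgeR as bars and a line at 0. All 8 leukocyte genes lie below 0, and most paralogs lie closer to 0.

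The wider lists of blood cell genes gave a mixed picture between the sides, with 0 genes called by edgeR in any of them. Of 24 leukocyte signalling genes 21 had a negative log2 fold, left over right, with a median of -0.43, and 8 of 8 leukocyte integrin and adhesion genes were negative (median -0.57). All 5 subunits of the phagocyte NADPH oxidase, which makes superoxide, were negative (-0.27). Among them the catalytic subunit CYBB (entry CY24B) was at 3.13 ± 2.41 CPM in left and 5.51 ± 4.86 CPM in right libraries (-0.84 ± 0.58). For neutrophils and granulocytes 7 of 8 were negative (-0.46), and for chemokine and cytokine receptors 9 of 9 (-0.21). Macrophage and phagocyte genes were divided, with 11 negative and 7 positive (-0.10).

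Within the macrophage list 2 genes had an unadjusted p under 0.05. The mannose receptor MRC1 was at 92.6 ± 24.2 CPM in left and 134 ± 29.4 CPM in right libraries (log2 fold -0.55 ± 0.19, edgeR unadjusted p = 0.0122, adjusted p = 1). F13A1 (entry F13A), a coagulation factor chain also made by macrophages, was at 18.3 ± 8.48 CPM in left and 33.5 ± 17.3 CPM in right libraries (-0.86 ± 0.29, unadjusted p = 0.0104, adjusted p = 1). MRC1 is also made by endothelium, and F13A1 was also among the markers set here for thrombocytes. Neither value is thus particular to macrophages.

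Of 23 lymphocyte names 14 had no row under their human entry names, CD3E, CD79A, CD79B, RAG1 and PAX5 among them, which says nothing of their level. The rows present summed to 12.9 to 32.8 CPM in left and 17.4 to 30.4 CPM in right libraries. Of the 7 tested, 2 were negative and 5 positive between the sides (median log2 fold 0.05). RAG2, needed for antigen receptor rearrangement, had 0 reads in all 4 pools and 0.684 ± 0.445 CPM in single-stomach libraries. In the pools 0 reads allow up to 0.147 CPM (right 7) to 0.260 CPM (left 7), at 3 reads, so absence is not shown. Of 9 tested factors of blood stem and progenitor cells 3 were negative and 6 positive (0.16). RUNX1, a master factor of blood formation, was at 39.7 ± 53.3 CPM in left and 31.6 ± 37.1 CPM in right libraries (0.33 ± 0.74).

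Markers of vessels and liver also had mostly negative log2 folds. Of 13 endothelial genes 12 were negative (median log2 fold -0.39), and their levels summed to 371 to 1025 CPM in left libraries, against 533 to 1233 CPM in right libraries. Of 7 liver genes with a row all 7 were negative (-0.41). In the DESeq2 comparison of title pairs 6 of the 7 were called lower on the left, against 0.301% of all rows with an adjusted p. The list summed to 1479 to 37715 CPM in left and 2577 to 30336 CPM in right libraries. Its sum was lower on the left in every title pair but higher on the left in the pools. There left 7 and left 8 held 29387 and 37715 CPM, against 23111 and 30336 CPM in right 7 and right 8. ALB (entry ALBU) had no row. Of 11 erythroid genes 3 were negative (0.05), of 6 thrombocyte genes 5 (-0.22), of 4 smooth muscle genes 3 (-0.44), of 5 epithelial genes 1 (0.08) and of 8 cell cycle genes 0 (0.07). The part of vessel and liver content in the side difference of the leukocyte genes was not tested.

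The genes whose levels followed the mean of the 8 most closely included leukocyte signalling genes and genes with other roles, and depended on how the libraries were centred. Likeness was the Pearson correlation over 14 libraries with the mean of each source removed, over 11220 reviewed entries with a mean of at least 1 CPM. The first was PTPN6 (entry PTN6), a phosphatase of blood cells (r = 0.96, Spearman rho 0.98). Next came the kinase SYK (entry KSYK, r = 0.96, rho 0.96) and the adaptor FYB (r = 0.96, rho 0.94). The coagulation factor F5 (entry FA5, r = 0.95), UNC13D (entry UN13D, r = 0.93), PTGIS (r = 0.93) and IRF8 (r = 0.93) followed. ADGRE3 (entry EMR3), RCSD1 (entry CPZIP) and the entry CT196 completed the 10, down to r = 0.92. Without the 2 libraries farthest from the median, right 2 and right 5, the 10 correlations were 0.87 to 0.96.

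With the mean of each library set removed instead, PTPN6 was again first (r = 0.95). FA5, FYB and KSYK were the other 3 entries in both groups of 10, so 4 of 10 were shared. The remaining 6 were HNF6, MASP1, RYR3, SPIB, GTR3 and CEAM1, of which HNF6 (ONECUT1) is a factor of liver and pancreas. Each was chosen for its high correlation, so no p is given. PTPN6 was at 1.94 ± 0.939 CPM in left and 3.11 ± 1.97 CPM in right libraries (log2 fold -0.68 ± 0.40), and SYK at 1.11 ± 0.850 CPM in left and 1.98 ± 1.27 CPM in right libraries (-0.84 ± 0.65).

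**Figure D5:**
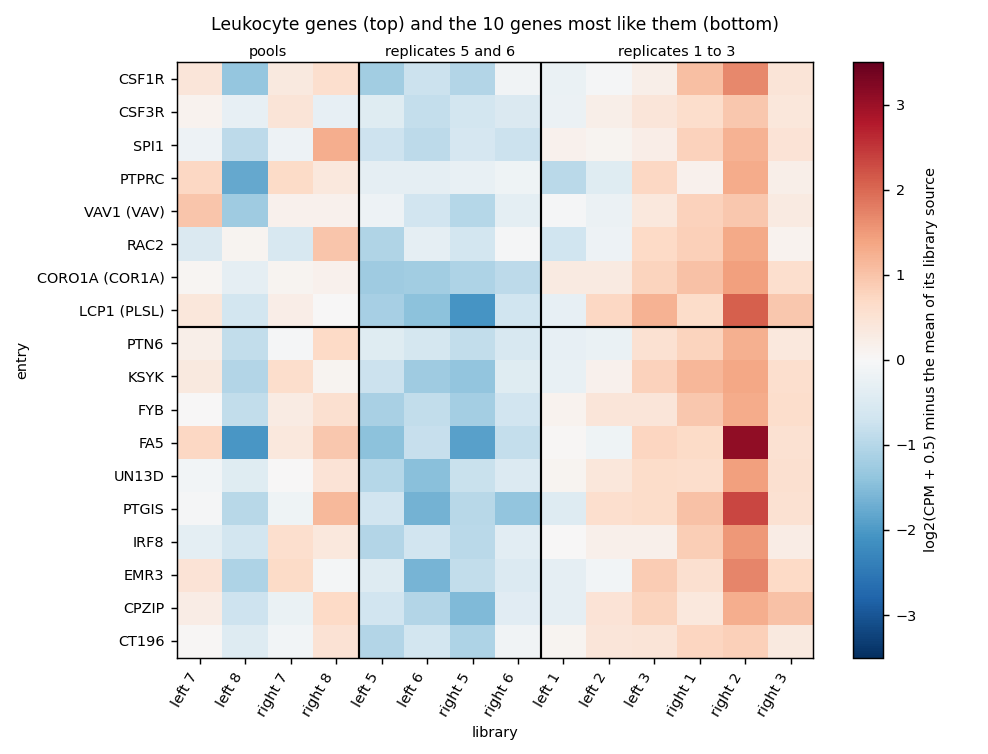
Level of the 8 leukocyte genes (top) and the 10 genes most like them (bottom) in each of 14 libraries, as log2(CPM + 0.5) minus the mean of the gene in pools or in single-stomach libraries; red is above and blue below that mean. Right 2 is the reddest column, replicates 5 and 6 are blue, and left 8 is the bluest of the pools.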

How the data were processed

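Per the labels' protocols, stomach tissue was lysed in Trizol, its RNA was purified on columns, and 14 strand-specific libraries were made. The count table the authors deposited lists whole-number read counts in 26940 rows named by human UniProt entries. The submitters' processing notes name, with no role or order, DESeq, Bowtie, SAMtools 0.1.19, Trimmomatic and Bowtie2 2.1.0. For the reference build, the counting method and its use of strand, no statement is given in the sources used here. The deposited normalized table was not used.

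Sides and sources were compared by edgeR 4.0.16 (quasi-likelihood, TMM, filterByExpr on the design of side and source, Benjamini-Hochberg at 0.05 over 23271 rows) in R 4.3.3. SE is the log2 fold over the root of F. CPM used TMM-scaled totals of the tested rows. DESeq2 1.42.0 was an alternative. The edgeR and DESeq2 fits of side with source were tested on simulated counts of independent libraries. Paired and interaction fits were not. Limits of 0 counts are 3 reads and cover counting error only. The labels call the libraries biological replicates, so p-values measure the spread between libraries, and title pairs may share a stomach.

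Single-stomach samples were paired by their titles. Deviations of paired libraries from their group means correlated at 0.66, 0.67, 0.67, 0.79 and 0.87 in replicates 1, 2, 3, 5 and 6 (log2(CPM + 0.5), 19318 rows). Part of this follows the division into replicates 1 to 3 and 5 to 6. No values of mismatched libraries are given beside them, so the correlations do not show which libraries of a set belong together. Every same-side pair of libraries differed by more than sampling error (chi-square over its degrees of freedom from 16.5 to 369 in 42 pairs).

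The 10 genes, the library sets and the 16 other gene lists (243 names) were chosen with earlier results of these data known. Named genes were all 8 with a row, called list members (at most 4 a list) or else those of highest level, the paralogs, and the 10 genes most correlated with the mean of the 8. Other genes named, such as those of smallest p, were chosen after their values were seen.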

Additional observations from a re-analysis of the deposited data

Results flagged for a closer look

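Of 18 groups of libraries checked for a value far from the others, 2 held one, and chance flags about 1 group in 20. CSF1R stood at 5.89 CPM in the pool left 7, while the other 6 left libraries lay between 0.760 and 2.87 CPM, a gap of 0.588 of the whole range. PTPRC stood at 4.10 CPM in right 2, while the other 6 right libraries lay between 1.07 and 2.25 CPM, a gap of 0.609 of the range. Right 2 was also the highest library for the other 7 genes.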

How the results depend on the processing

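Of 270 log2 folds of the 8 genes between left and right under the alternatives, 266 kept direction and side of the threshold, 3 (CSF1R in paired DESeq2 fits) passed it and 1 reversed, VAV1 at 0.10 in pools alone. There 5 of 6 genes were negative, with SPI1 and CSF3R below the filter. The replicate block had 1 level for each title pair and 1 for all 4 pools, so pools were not matched across sides. With that block edgeR called 0 rows between the sides, as without it, and all 8 genes stayed negative. In that fit CSF1R, SPI1 and CORO1A had edgeR unadjusted p of 0.0135, 0.0347 and 0.0384. The other genes were above 0.05, and 469 of all rows were under it. DESeq2 called 13 rows with the replicate block, 6 with the 3 library sets (chosen after seeing the data) and 96 in the title pairs alone; without pair 1, 2, 3, 5 or 6 the last count was 23, 44, 104, 97 or 97. For the interaction of side and source DESeq2 called 143 rows, and edgeR called 0 to 1589 leaving out 1 library, the 1589 without left 7. Pools against single stomachs had log2 folds near 0 that changed sign. PTPRC was at -0.12 without scaling, -0.018 without a filter and -0.049 with rows summed. RAC2 was at 0.027 with DESeq-type size factors, 0.0028 with a filter of 10 counts in 7 libraries and 0.027 in DESeq2, and CORO1A at -0.15 without scaling. Leaving out 1 library gave -0.65 to 0.39 for PTPRC, -0.36 to 0.26 for RAC2, -0.087 to 0.25 for CORO1A, -1.11 to 0.15 for VAV1 and -1.42 to 0.017 for SPI1. The cause was not tested. Depth limits SPI1 and CSF3R most, with at most 46 and 34 reads per library.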
